A study of Mus musculus with 14 samples.

Results

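The 43 genes described here encode the machinery with which a cell divides: the cyclins and kinases that start mitosis, the kinetochores and motors that move chromosomes, the condensins that pack them, and the proteins that separate the daughter cells. They were chosen by name as a list of mitosis and cytokinesis genes, with earlier results of these data known. They were matched by symbol to the mouse gene IDs of the count tables. All 43 were found among 51912 gene rows, and all 43 passed the filter on low counts that left 14638 genes for testing. Whole liver RNA was sequenced from 14 untreated mice, each 20 weeks old, with 1 library per sample. Controls were 4 littermates with the genotype Tet2fl/fl cre-, in which both Tet2 alleles are floxed and intact, described by the submitters as healthy. The other 10 mice carried Tet2fl/fl vav cre+, in which Cre driven by the vav promoter removes Tet2 mainly in blood cells, so that hepatocytes are not its intended target. Of these, 5 were asymptomatic and 5 had spontaneous autoimmune hepatitis (AIH). What a division gene does in whole liver is a mixture: more dividing cells and more of its RNA per dividing cell cannot be told apart in bulk tissue.

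Adult hepatocytes rarely divide, and most cells of a healthy liver rest outside the cycle. Genes of mitosis are transcribed in a wave late in the cycle, in G2 phase and mitosis, after the genes of DNA synthesis. A repressor, the DREAM complex, holds them down in resting cells by binding a short element near the start site, the cell cycle genes homology region (CHR), and in dividing cells the MuvB core of that complex passes to B-Myb (gene Mybl2) and then FoxM1, which activate the same promoters. Many of these promoters also hold CCAAT boxes, the sites of the factor NF-Y. Their RNA is therefore widely used as a readout of dividing cells of any type.

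Promoter sequences are shown for 7 members to set these elements before the values. They were taken from RefSeq (GRCm38.p6) as the 130 bases before the start site, 5′ to 3′ on the gene's strand, with CHR matches (TTTGAA or TTCGAA, either strand, so TTCAAA also) and CCAAT boxes (CCAAT, or ATTGG on the other strand) in capitals. Top2a, Kif11, Cdc20 and Ect2 hold both elements upstream of the start. Ccnb2 shows a row of CCAAT boxes, with a CHR match just after the start, outside the stretch shown. Mki67 shows CHR matches alone in this stretch, and Birc5 neither element.
Top2a (chr11:99024190-99024319, minus strand): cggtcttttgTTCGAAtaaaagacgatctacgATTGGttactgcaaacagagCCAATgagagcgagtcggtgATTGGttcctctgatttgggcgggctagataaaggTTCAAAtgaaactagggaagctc
Kif11 (chr19:37376252-37376381, plus strand): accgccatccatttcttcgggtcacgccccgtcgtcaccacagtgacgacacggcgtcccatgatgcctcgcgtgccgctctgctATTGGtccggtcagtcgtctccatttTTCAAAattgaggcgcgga
Cdc20 (chr4:118437344-118437473, minus strand): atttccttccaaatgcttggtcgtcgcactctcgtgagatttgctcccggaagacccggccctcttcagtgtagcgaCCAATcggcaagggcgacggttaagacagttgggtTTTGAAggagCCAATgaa
Ect2 (chr3:27153879-27154008, minus strand): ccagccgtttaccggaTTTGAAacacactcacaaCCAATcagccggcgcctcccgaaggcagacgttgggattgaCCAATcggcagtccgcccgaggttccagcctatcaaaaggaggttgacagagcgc
Ccnb2 (chr9:70421555-70421684, minus strand): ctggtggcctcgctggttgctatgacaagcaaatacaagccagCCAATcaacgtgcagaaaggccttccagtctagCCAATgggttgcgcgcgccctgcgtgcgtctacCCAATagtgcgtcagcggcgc
Mki67 (chr7:135716380-135716509, minus strand): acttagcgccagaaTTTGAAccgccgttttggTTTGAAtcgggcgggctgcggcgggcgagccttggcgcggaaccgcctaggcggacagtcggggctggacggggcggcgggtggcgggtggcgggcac
Birc5 (chr11:117849107-117849236, plus strand): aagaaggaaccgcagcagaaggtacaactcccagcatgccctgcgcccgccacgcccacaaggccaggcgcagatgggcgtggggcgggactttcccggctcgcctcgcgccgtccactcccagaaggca

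RefSeq promoters, each from 250 bases before to 50 after a start, were given for 36 members; Ccna2, Foxm1, Aurkb, Tpx2, Dlgap5, Smc4 and Kif20a had no entry. A CHR match lay in 29 of the 36 (80.6%), against 17.0% of the 10609 tested genes with a promoter and 21.7% of all 27025 genes in the table. CCAAT boxes lay in 26 (72.2%), against 42.8% of the tested genes and 41.1% of all. Both elements were found together in 24 members (66.7%), against 6.93% of the tested genes and 8.61% of all. Their positions differed. Counted from 1 start per member, 28 of the 41 CHR matches began within 50 bases of the start, in 26 members, whereas 54 of the 56 CCAAT boxes began upstream of it, and 16 members held 2 or more boxes. The letters match short motifs and are no evidence of binding.

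**Figure D1:**
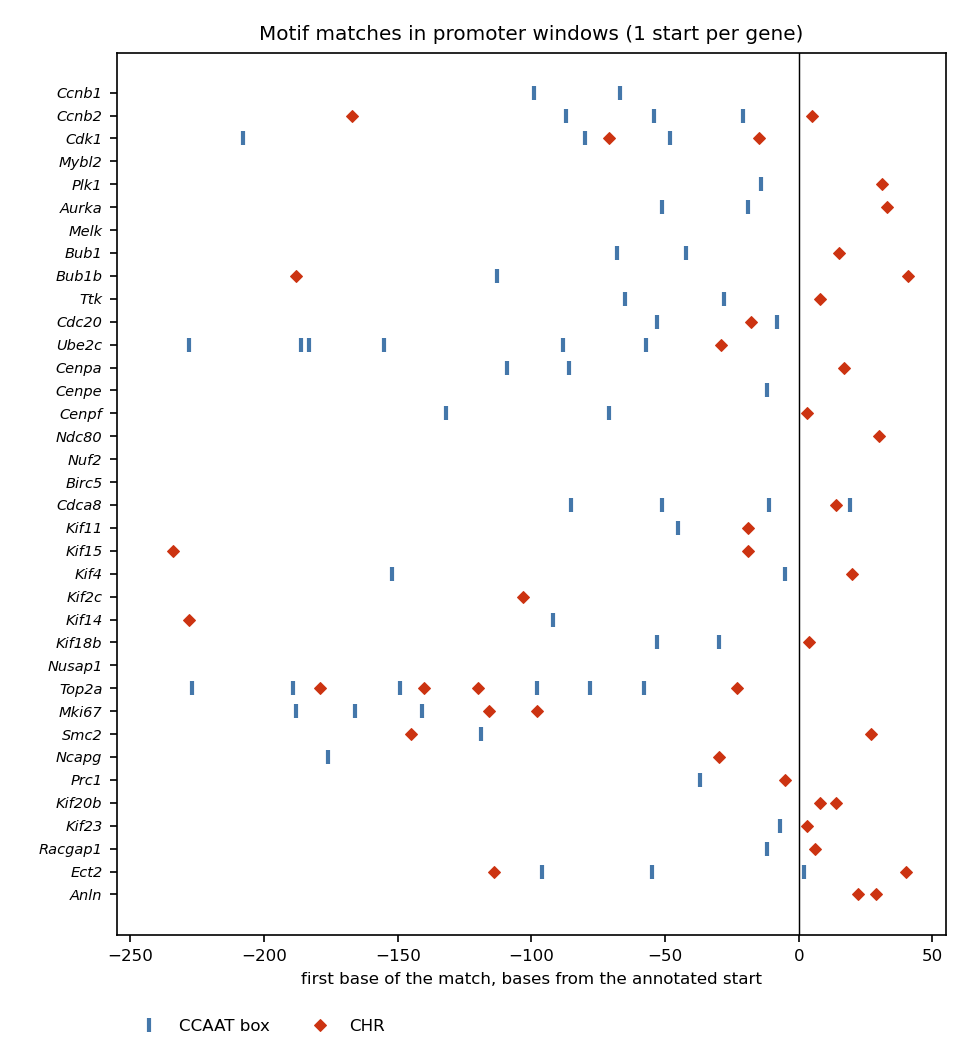
Position of CHR (diamonds) and CCAAT (bars) matches in the promoter windows of 36 members, in bases from the annotated start (vertical line); for members with 2 annotated starts, 1 is drawn. CHR matches gather near the start, with 28 of 41 within 50 bases, and CCAAT boxes lie upstream.

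Libraries held between 16.0 and 18.9 M counts in genes (M, mega), and levels are given as CPM, the counts of a gene divided by the TMM-scaled library total in M. The share of reads that did not align was 4.17% to 4.89% in controls, 7.80% to 9.27% in asymptomatic livers except asymptomatic liver 2 (4.93%), and 3.23% to 3.77% in AIH livers except AIH 4 (6.54%). Sex, read from Xist and 4 Y-linked genes, was 2 female and 2 male in controls, 5 male in the asymptomatic group, and 4 female and 1 male (AIH 4) in AIH. The labels number the AIH libraries after all the others, so an order of handling, if those numbers give one, cannot be told apart from AIH. Tet2 itself ran from 8.53 to 11.98 CPM in controls, 4.77 to 9.23 in asymptomatic livers and 7.34 to 15.4 in AIH livers, and whole liver, most of which lies outside the blood lineage, does not check the deletion. Hepatocyte markers were high in every library, with a summed level of 8 genes of 115635 to 156165 CPM in controls, 121792 to 146875 in asymptomatic livers and 88256 to 162770 in AIH livers.

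In AIH livers nearly all of these 43 division genes were higher. Against controls 42 of the 43 members rose (edgeR's quasi-likelihood test, Benjamini-Hochberg adjusted over 14638 genes, threshold 0.05) and none fell, beside 15.6% of all tested genes called higher and 6.08% lower. Ect2, which starts the contractile ring at the cleavage site, did not pass. The median of the members was a log2 fold change of 3.53, or 11.6-fold, where the median of all tested genes was -0.01. Between the quartiles the members spanned 2.87 to 3.95. For 42 members every AIH library lay above every control, a separation that 13.2% of all tested genes showed. More than 8-fold differences were found for 31 members (72.1%) and for 3.37% of tested genes. As the members were chosen with earlier results known, these shares describe the list and do not test it.

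Within the vav cre+ genotype the 43 genes were again higher in AIH. Against asymptomatic livers all 43 members rose, beside 19.1% of tested genes called higher and 10.7% lower, with adjusted p from 2.27e-06 to 0.0177 (edgeR). Their median was 3.36, or 10.3-fold, and the extremes were Cenpa (1.23) and Plk1 (4.30). No member's AIH libraries overlapped the asymptomatic ones, beside 12.3% of tested genes separated upward. These 2 contrasts share the 5 AIH libraries and are not independent of each other. Summed over the 43 members, the level was 34.4 to 53.8 CPM in controls, 39.6 to 56.5 CPM in asymptomatic livers and 271 to 418 CPM in AIH livers.

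**Figure D2:**
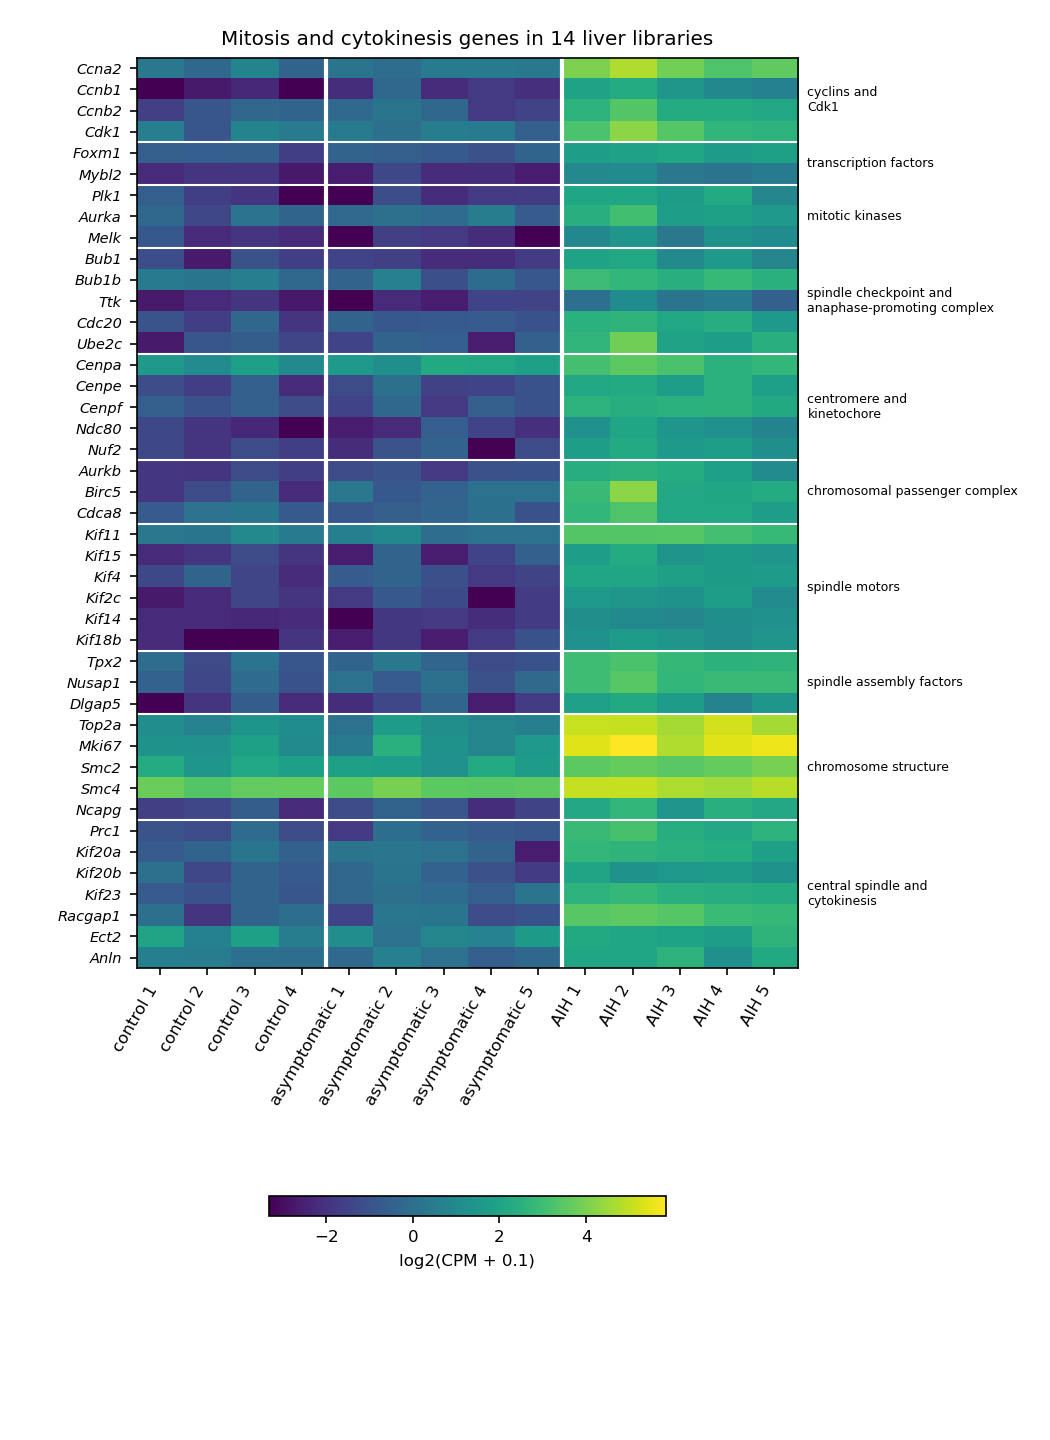
Level of the 43 members in each of the 14 libraries, as log2(CPM + 0.1) on a colour scale, with members ordered by role and groups set apart by white lines. The 5 AIH columns are brighter in nearly every row; Smc4, Cenpa and Ect2 are already bright in the other columns.

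Entry into mitosis is set off by Cdk1, a kinase that works only when bound to a cyclin. Cyclin A2 (Ccna2, ENSMUSG00000027715, chr3:36564865-36572150, GRCm38 here and below), which acts from S phase to early mitosis, measured 1.17, 0.735, 1.63 and 0.67 CPM in controls 1 to 4, 1.04, 0.882, 1.32, 1.29 and 1.2 CPM in asymptomatic livers 1 to 5, and 16.0, 26.6, 14.7, 9.96 and 12.1 CPM in AIH livers 1 to 5. The lowest AIH library, AIH 4 (9.96 CPM), stood well clear of the highest of the rest, control 3 (1.63 CPM). Its log2 fold change was 3.91 ± 0.35 (SE) against control (edgeR adjusted p = 1.34e-05) and 3.79 ± 0.32 against asymptomatic livers (adjusted p = 4.21e-06). Cyclin B1 (Ccnb1, ENSMUSG00000041431, chr13:100778650-100786570), the partner with which Cdk1 drives mitosis itself, measured 0, 0.0565, 0.109 and 0 CPM in controls 1 to 4, 0.13, 0.765, 0.125, 0.194 and 0.133 CPM in asymptomatic livers 1 to 5, and 3.79, 4.86, 2.8, 1.85 and 1.52 CPM in AIH livers 1 to 5. It was close to absent from controls, with 3 counts over the 4 libraries, so that the ratio of pooled AIH to control CPM, 71.4, carries a 95% counting interval of 24.2 to 348. The fitted log2 fold change was 5.92 ± 0.79 (SE) against control (edgeR adjusted p = 0.000134) and 3.40 ± 0.57 against asymptomatic livers (adjusted p = 0.000566); the first depends on the prior count that the fit adds. The remaining cyclin B (Ccnb2) rose by 3.53 ± 0.49 against control and 3.29 ± 0.44 against asymptomatic livers, with edgeR adjusted p of 0.000173 and 9.00e-05. The mean of Cdk1 was 1.19 ± 0.515 CPM over controls (SD, n = 4), 1.08 ± 0.311 over asymptomatic livers (n = 5) and 10.3 ± 5.18 in AIH livers (n = 5), a change of 3.10 ± 0.42 and 3.25 ± 0.39.

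Foxm1 and Mybl2, the genes of transcription factors that switch on the late wave, were themselves on the list of members. Their own timing in the cycle was not tested. Foxm1 (ENSMUSG00000001517, chr6:128362967-128376146), a forkhead factor of G2 phase, measured 0.585, 0.565, 0.599 and 0.223 CPM in controls 1 to 4, 0.65, 0.588, 0.502, 0.388 and 0.665 CPM in asymptomatic livers 1 to 5, and 3.31, 3.65, 4.08, 3.19 and 3.59 CPM in AIH livers 1 to 5. Its AIH libraries were closely grouped, from 3.19 to 4.08 CPM, and control 4 was the lowest of all. The log2 fold change was 2.84 ± 0.30 (SE) against control (edgeR adjusted p = 2.57e-05) and 2.66 ± 0.27 against asymptomatic livers (adjusted p = 1.19e-05). Mybl2, which encodes B-Myb, rose by 3.48 ± 0.45 and 3.36 ± 0.42 in the same contrasts (edgeR adjusted p = 0.000119 and 5.12e-05), from a lower level, with 1.48 ± 0.444 CPM in AIH livers (SD, n = 5).

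Among the kinases Plk1, Aurka and Melk, the smallest p against asymptomatic livers and the largest against control belonged to Melk (ENSMUSG00000035683, chr4:44300876-44364675), a kinase of dividing and progenitor cells. It measured 0.468, 0.113, 0.163 and 0.112 CPM in controls 1 to 4, 0, 0.235, 0.188, 0.129 and 0 CPM in asymptomatic livers 1 to 5, and 1.82, 2.67, 1.17, 2.46 and 2.07 CPM in AIH livers 1 to 5. No count at all was found in asymptomatic livers 1 and 5, while control 1 was above the other controls. The lowest AIH library was AIH 3 (1.17 CPM), and the highest of the others control 1 (0.468 CPM). Melk changed by 3.22 ± 0.60 (SE) against control (edgeR adjusted p = 0.00159) and 4.09 ± 0.60 against asymptomatic livers (adjusted p = 0.000194). Polo-like kinase 1 (Plk1), which acts at centrosomes, kinetochores and the midzone, had the largest log2 fold change of all members against asymptomatic livers, 4.30 ± 0.64 (edgeR adjusted p = 0.000226), and averaged 0.174 ± 0.128 and 3.61 ± 1.16 CPM in these groups (SD, n = 5 each). Aurora kinase A (Aurka), which matures the spindle poles, rose by 2.77 ± 0.42 against control and 2.40 ± 0.38 against asymptomatic livers, less than Plk1 and Melk in point estimate.

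The spindle checkpoint holds anaphase back until chromosomes are attached, and the anaphase-promoting complex then marks cyclin B and securin for destruction. Cdc20 (ENSMUSG00000006398, chr4:118432901-118437352), the activator of that complex and the target of the checkpoint, measured 0.409, 0.226, 0.708 and 0.168 CPM in controls 1 to 4, 0.65, 0.471, 0.502, 0.517 and 0.399 CPM in asymptomatic livers 1 to 5, and 5.71, 6.08, 4.37, 5.09 and 2.93 CPM in AIH livers 1 to 5. AIH 5 was the lowest AIH liver, still above control 3, the highest of the others. Cdc20 rose by 3.65 ± 0.39 (SE) against control (edgeR adjusted p = 2.65e-05) and 3.23 ± 0.35 against asymptomatic livers (adjusted p = 1.54e-05). Ttk (ENSMUSG00000038379, chr9:83834689-83872389), the kinase Mps1 at the head of the checkpoint, had the largest p of this role and low levels throughout, with 0.0585, 0.113, 0.163 and 0.0559 CPM in controls 1 to 4, 0, 0.118, 0.0627, 0.259 and 0.266 CPM in asymptomatic livers 1 to 5, and 0.912, 2.09, 1.05, 1.23 and 0.606 CPM in AIH livers 1 to 5. AIH 2 was the highest library and AIH 5 the lowest of the AIH livers, and the groups did not overlap. Ttk rose by 3.49 ± 0.62 (SE) against control (edgeR adjusted p = 0.0012) and 3.01 ± 0.55 against asymptomatic livers (adjusted p = 0.00105). The checkpoint kinase Bub1 rose by 3.51 ± 0.46 and 3.91 ± 0.44, its relative Bub1b (BubR1) by 2.53 ± 0.35 and 3.06 ± 0.33, and Ube2c, the ubiquitin-conjugating enzyme of the complex, by 4.28 ± 0.64 and 3.93 ± 0.57 against control and asymptomatic livers.

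Kinetochores assemble on centromeric chromatin and grip the microtubules. Cenpf (ENSMUSG00000026605, chr1:189640606-189688086), a large protein of the outer kinetochore, measured 0.585, 0.396, 0.599 and 0.335 CPM in controls 1 to 4, 0.26, 0.765, 0.188, 0.582 and 0.399 CPM in asymptomatic livers 1 to 5, and 5.95, 5.1, 5.65, 5.76 and 4.6 CPM in AIH livers 1 to 5. Its AIH values differed little from each other, 4.60 to 5.95 CPM. Cenpf rose by 3.48 ± 0.36 (SE) against control (edgeR adjusted p = 2.04e-05) and 3.60 ± 0.33 against asymptomatic livers (adjusted p = 5.89e-06). Cenpa (ENSMUSG00000029177, chr5:30666777-30674830), the histone H3 variant that marks centromeres, measured 2.98, 2.03, 3.54 and 2.01 CPM in controls 1 to 4, 2.93, 2.24, 4.58, 4.39 and 3.59 CPM in asymptomatic livers 1 to 5, and 8.69, 11.5, 9.03, 5.65 and 6.57 CPM in AIH livers 1 to 5. Its groups lay closer together, with AIH 4 (5.65 CPM) above asymptomatic liver 3 (4.58 CPM). Cenpa rose by 1.65 ± 0.29 (SE) against control (edgeR adjusted p = 0.00101) and 1.23 ± 0.26 against asymptomatic livers (adjusted p = 0.0030). Of the Ndc80 complex, which binds microtubules directly, the members Ndc80 (4.17 ± 0.64 and 3.5 ± 0.55) and Nuf2 (3.68 ± 0.56 and 3.43 ± 0.51) rose against control and asymptomatic livers in turn. Its other subunits, looked up after their values were seen, did not pass the edgeR test in either contrast, with Spc24 at -0.67 ± 0.39 and -0.46 ± 0.37 and Spc25 at -0.18 ± 0.47 and 0.18 ± 0.45. The kinetochore motor Cenpe rose by 3.72 ± 0.47 and 3.29 ± 0.42.

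The chromosomal passenger complex corrects faulty attachments and later moves to the midzone. Its kinase Aurkb (ENSMUSG00000020897, chr11:69045647-69051664) measured 0.175, 0.17, 0.327 and 0.223 CPM in controls 1 to 4, 0.325, 0.412, 0.188, 0.388 and 0.399 CPM in asymptomatic livers 1 to 5, and 5.09, 5.88, 5.01, 3.47 and 2.02 CPM in AIH livers 1 to 5. The AIH libraries spanned 2.02 to 5.88 CPM, all above the 9 others, none of which exceeded 0.412 CPM. Aurkb rose by 4.22 ± 0.40 (SE) against control (edgeR adjusted p = 1.48e-05) and 3.62 ± 0.35 against asymptomatic livers (adjusted p = 7.70e-06). Survivin (Birc5), the subunit that brings the complex to centromeres, rose by 4.59 ± 0.61 against control and 3.22 ± 0.50 against asymptomatic livers, and borealin (Cdca8) by 2.87 ± 0.39 and 3.21 ± 0.37.

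**Figure D3:**
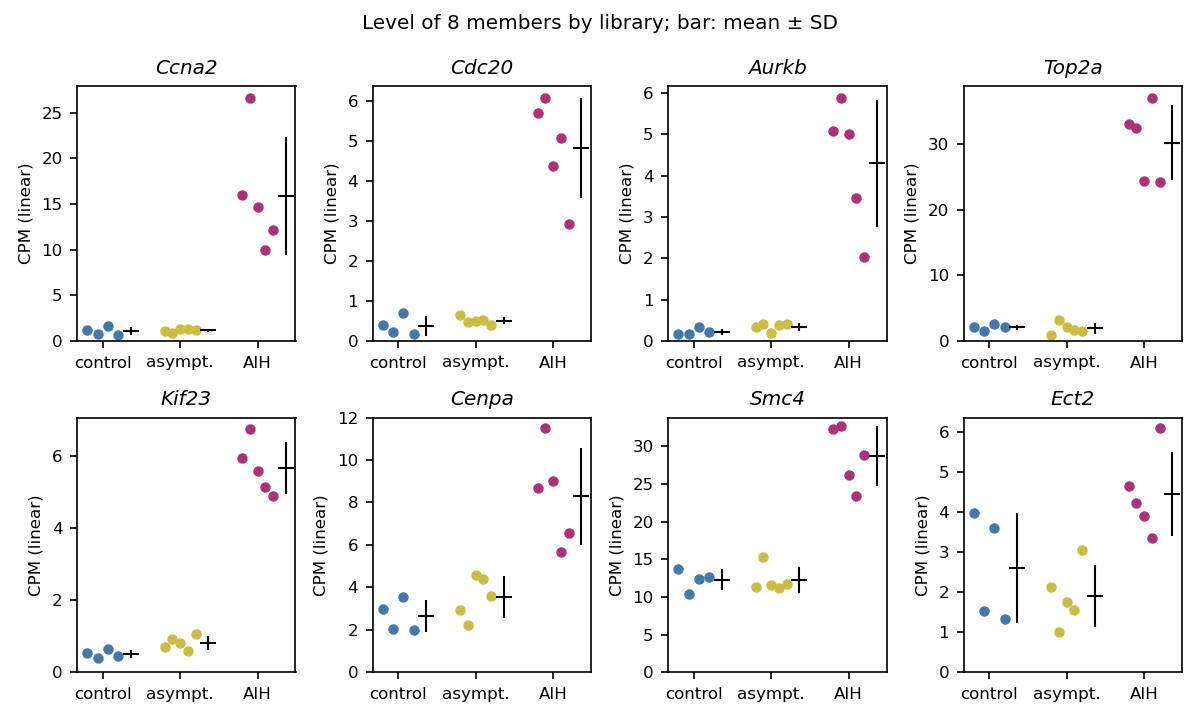
Level in CPM (linear axes from 0) of 8 members in each library, with the mean and SD of each group beside the points. Ccna2, Cdc20, Aurkb, Top2a and Kif23 start near 0 in controls and asymptomatic livers; Cenpa and Smc4 start higher, and in Ect2 the AIH values overlap the controls.

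Motors of the kinesin family push, slide and shorten spindle microtubules. Kif11 (ENSMUSG00000012443, chr19:37376403-37421859), the motor Eg5 that separates spindle poles, measured 1.17, 1.07, 1.91 and 1.23 CPM in controls 1 to 4, 1.43, 1.82, 0.878, 0.969 and 0.998 CPM in asymptomatic livers 1 to 5, and 10.3, 10.3, 10.5, 8.56 and 6.97 CPM in AIH livers 1 to 5. AIH livers 1 to 3 were nearly alike at 10.3 to 10.5 CPM, and AIH 5 was lowest at 6.97 CPM. Kif11 rose by 2.79 ± 0.28 (SE) against control (edgeR adjusted p = 1.84e-05) and 2.93 ± 0.26 against asymptomatic livers (adjusted p = 5.48e-06). Kif15 (ENSMUSG00000036768, chr9:122951046-123018733), which can stand in for Kif11 in keeping the spindle bipolar, measured 0.117, 0.17, 0.327 and 0.168 CPM in controls 1 to 4, 0.065, 0.647, 0.0627, 0.259 and 0.599 CPM in asymptomatic livers 1 to 5, and 3.36, 4.91, 2.56, 3.08 and 2.68 CPM in AIH livers 1 to 5. Asymptomatic livers 2 and 5 were above the other libraries without hepatitis, and every AIH liver was higher still. Kif15 rose by 4.03 ± 0.57 (SE) against control (edgeR adjusted p = 0.000225) and 3.31 ± 0.50 against asymptomatic livers (adjusted p = 0.000234). The other motors were the chromosome-arm motor Kif4, the depolymerase Kif2c, the midbody motor Kif14 and the plus-end motor Kif18b, whose log2 fold changes against control were 3.42 ± 0.44, 4.09 ± 0.56, 4.15 ± 0.44 and 5.08 ± 0.64. Against asymptomatic livers they were 3.17 ± 0.39, 3.48 ± 0.49, 3.86 ± 0.40 and 3.82 ± 0.52, and all 8 of these values passed the edgeR test.

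Spindle assembly factors nucleate and bundle microtubules around chromosomes. Nusap1 (ENSMUSG00000027306, chr2:119618298-119651244), a microtubule bundler, measured 0.643, 0.283, 0.817 and 0.391 CPM in controls 1 to 4, 0.975, 0.529, 0.941, 0.388 and 0.798 CPM in asymptomatic livers 1 to 5, and 7.87, 10.8, 6.59, 7.05 and 7.02 CPM in AIH livers 1 to 5. All AIH values, from AIH 3 (6.59 CPM) up, exceeded the highest of the others, asymptomatic liver 1 (0.975 CPM). Nusap1 rose by 3.86 ± 0.36 (SE) against control (edgeR adjusted p = 1.47e-05) and 3.43 ± 0.32 against asymptomatic livers (adjusted p = 6.16e-06). Tpx2, which activates Aurora A on the spindle, rose by 3.39 ± 0.40 and 3.44 ± 0.37, and Dlgap5 (HURP), which stabilizes fibres at kinetochores, by 3.87 ± 0.70 and 3.47 ± 0.62, against control and asymptomatic livers.

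Chromosome structure held the most abundant members. Top2a (ENSMUSG00000020914, chr11:98992943-99024189), the topoisomerase that untangles sister chromatids, measured 2.16, 1.58, 2.56 and 2.07 CPM in controls 1 to 4, 0.975, 3.18, 2.2, 1.68 and 1.46 CPM in asymptomatic livers 1 to 5, and 33.1, 32.5, 24.3, 37.0 and 24.2 CPM in AIH livers 1 to 5. AIH 4 was highest here at 37.0 CPM, unlike for most members. Top2a had the smallest adjusted p of all members against asymptomatic livers, with changes of 3.85 ± 0.30 (SE) against control (edgeR adjusted p = 7.03e-06) and 3.98 ± 0.28 against asymptomatic livers (adjusted p = 2.27e-06). Smc4 (ENSMUSG00000034349, chr3:69004738-69034623), a core subunit of both condensins, measured 13.7, 10.3, 12.4 and 12.6 CPM in controls 1 to 4, 11.4, 15.4, 11.5, 11.2 and 11.7 CPM in asymptomatic livers 1 to 5, and 32.4, 32.7, 26.2, 23.4 and 28.8 CPM in AIH livers 1 to 5. It was well expressed without hepatitis, and asymptomatic liver 2 stood above the rest of its group. Smc4 rose by 1.23 ± 0.15 (SE) against control (edgeR adjusted p = 8.08e-05) and 1.23 ± 0.14 against asymptomatic livers (adjusted p = 2.74e-05), a small change with a small error. Its partner Smc2 rose by 1.73 ± 0.23 and 1.87 ± 0.21, while Ncapg, a subunit of condensin I alone, rose by 3.99 ± 0.47 and 3.68 ± 0.42. Mki67, the coat of mitotic chromosomes and the antigen Ki-67 of pathology, went from 2.59 ± 0.702 CPM in controls (SD, n = 4) and 2.76 ± 1.66 CPM in asymptomatic livers (n = 5) to 43.4 ± 11.2 CPM in AIH livers (n = 5), a change of 4.06 ± 0.39 and 3.96 ± 0.35.

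After anaphase the central spindle places the cleavage furrow. Kif23 (ENSMUSG00000032254, chr9:61915905-61946774), the motor of the centralspindlin complex, measured 0.526, 0.396, 0.654 and 0.447 CPM in controls 1 to 4, 0.715, 0.941, 0.816, 0.582 and 1.06 CPM in asymptomatic livers 1 to 5, and 5.95, 6.76, 5.59, 5.15 and 4.9 CPM in AIH livers 1 to 5. AIH values were tightly grouped between 4.90 and 6.76 CPM, and the other 9 libraries stayed at or below 1.06 CPM. Kif23 rose by 3.47 ± 0.26 (SE) against control (edgeR adjusted p = 7.03e-06) and 2.77 ± 0.23 against asymptomatic livers (adjusted p = 4.21e-06). Ect2 (ENSMUSG00000027699, chr3:27097222-27153878), which centralspindlin recruits to start the contractile ring, measured 3.97, 1.53, 3.6 and 1.34 CPM in controls 1 to 4, 2.15, 1.0, 1.76, 1.55 and 3.06 CPM in asymptomatic livers 1 to 5, and 4.66, 4.23, 3.9, 3.36 and 6.11 CPM in AIH livers 1 to 5. Controls 1 and 3 lay within the AIH range and controls 2 and 4 below it, so that AIH and control overlapped. Against control the change of Ect2 was 0.77 ± 0.37 (edgeR adjusted p = 0.158), and against asymptomatic livers it rose by 1.23 ± 0.35 (adjusted p = 0.0177). DESeq2 also left Ect2 out against control, and limma-voom with quality weights called it.

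Racgap1, the other centralspindlin subunit, rose by 3.83 ± 0.49 against control and 3.88 ± 0.45 against asymptomatic livers, and the midzone bundler Prc1 by 3.71 ± 0.41 and 3.53 ± 0.37. The midzone motors Kif20a and Kif20b rose by 2.87 ± 0.48 and 2.33 ± 0.42 against control and by 2.78 ± 0.44 and 2.31 ± 0.39 against asymptomatic livers. Anillin (Anln), the scaffold of the contractile ring, rose by 1.86 ± 0.33 and 2.19 ± 0.31. The strand setting of the counting is not given, and exons of some members lie opposite another gene. Of their exon bases, 29.3% of Kif20a face Cdc23, 22.8% of Ube2c face Tnnc2 and 15.1% of Kif4 face Pdzd11. The share was 13.4% for Ncapg (Lcorl), 12.5% for Ccna2 (Exosc9) and 11.1% for Prc1 (Rccd1). Whether reads over these bases were counted for the member, for the other gene or for neither cannot be told. In Plk1, Nusap1, Cdca8 and Cdc20 the share was at most 7.09%. Cdc23 itself did not pass the test in either contrast (0.11 ± 0.16 and 0.04 ± 0.15). Pseudogenes were looked up only by a member's name with the ending -ps. Over the 14 libraries Ccnb1-ps held 27 counts, Ccnb2-ps 14 and Kif4-ps 3. Reads that did not align uniquely are outside these counts, so the low values do not measure reads shared with members.

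**Figure D4:**
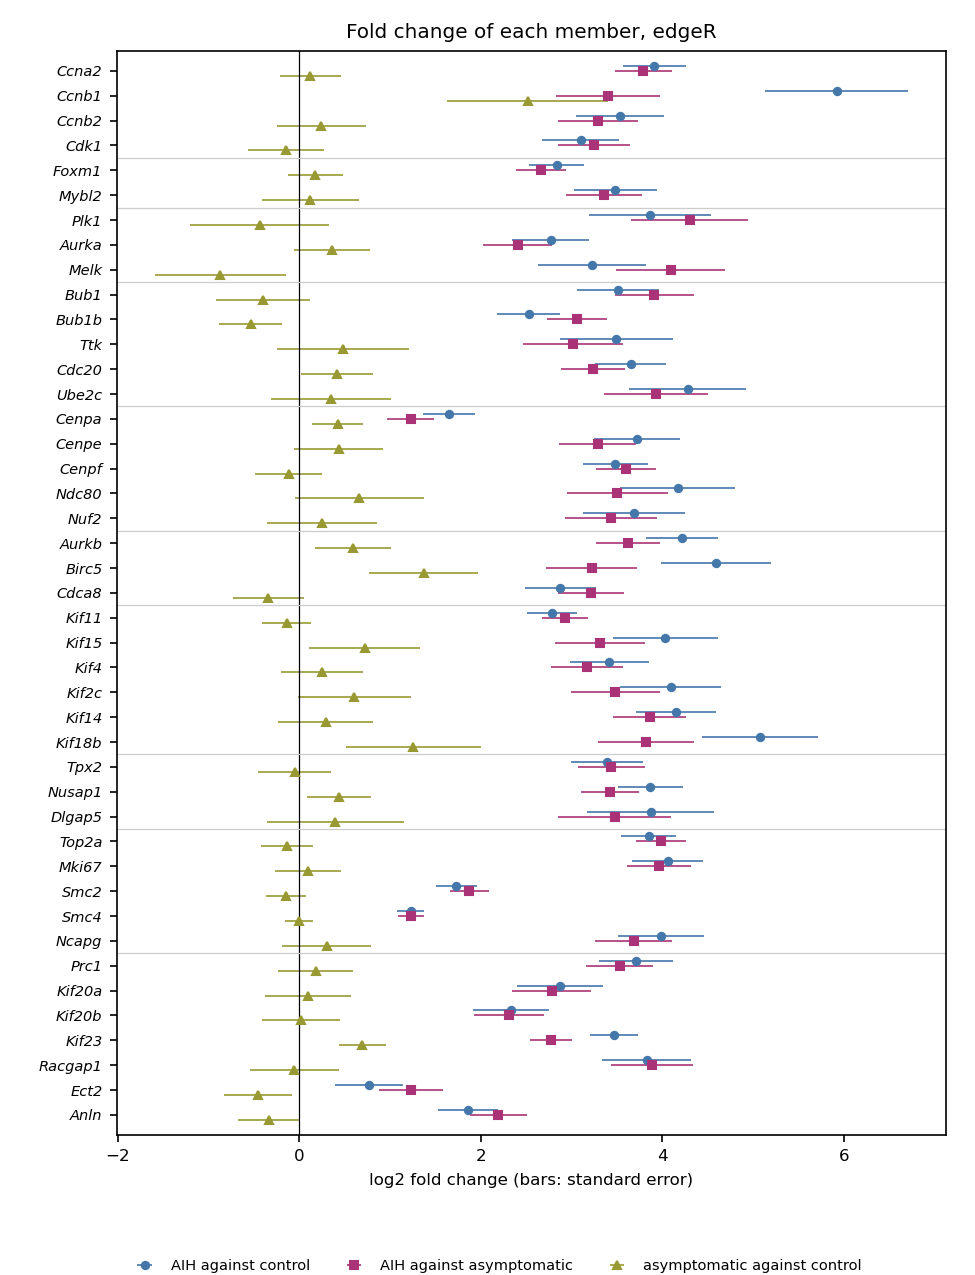
Log2 fold change of each member with its standard error in the 3 comparisons, members ordered by role. Both AIH comparisons lie to the right of 0 for every member, from 0.77 (Ect2) to 5.92 (Ccnb1), and asymptomatic against control straddles 0.

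Per kilobase of exon, a scale on which genes can be compared, the order of levels in AIH livers was led by Smc4 with 5.51 ± 0.77 CPM per kilobase (SD, n = 5), then Mki67 with 4.311 ± 1.117, Ccnb2 with 3.97 ± 1.59, Ccna2 with 3.89 ± 1.58 and Top2a with 3.35 ± 0.64. The first 5 overlap within their SDs from each to the next. At the foot stood Kif14 with 0.204 ± 0.022, Ttk with 0.239 ± 0.114 and Kif15 with 0.301 ± 0.086 CPM per kilobase. In controls Smc4 led by far, with 2.35 ± 0.27 (n = 4), ahead of Smc2 with 0.700 ± 0.172, Ect2 with 0.484 ± 0.254 and Cenpa with 0.451 ± 0.128. These 4, the best expressed of the members in controls per length, had the 4 smallest log2 fold changes against control. Over the 43 members, the control CPM, not divided by exon length, and the log2 fold change against control had a Spearman correlation of -0.67. For the asymptomatic CPM and the change of AIH against asymptomatic livers it was -0.51. Each pair shares its reference libraries, so these are descriptions only.

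The medians of members with and without a match to the CHR spellings searched, TTTGAA and TTCGAA, lay close. The part of the element in these changes was not tested. The 29 with a CHR match had a median log2 fold change of 3.51 against control and 3.29 against asymptomatic livers. For the 7 without a match (Ccnb1, Mybl2, Melk, Cenpe, Nuf2, Birc5 and Nusap1) the medians were 3.72 and 3.40. Ect2, whose promoter is printed above with both elements, was the member with the smallest change against control, and Birc5, printed with neither, had the third largest.

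Asymptomatic livers, which share the genotype of AIH livers, stayed near the controls. None of the 43 members passed the edgeR test against control, as was so for 0% of all 14638 genes. At an unadjusted p under 0.05 there were 3 members, beside 10.5% of tested genes: Ccnb1 at 2.52 ± 0.89 (edgeR adjusted p = 0.42), Kif23 at 0.70 ± 0.26 (adjusted p = 0.423) and Birc5 at 1.37 ± 0.60 (adjusted p = 0.453). All asymptomatic livers were male and 2 of the 4 controls female. With sex as a term, Ccnb1 stood at 3.21 ± 0.98 and Birc5 at 2.21 ± 0.63 (edgeR adjusted p = 0.555 for each), and among males alone Birc5 stood at 2.49 ± 0.59 (adjusted p = 0.752). Ccnb1 had 0 counts in both male controls, so no fold is given for it there. Positive values were found for 28 members and negative for 15, with a median of 0.18. Only Ccnb1 was higher in every asymptomatic liver than in every control, as were 1.27% of tested genes, and of its 22 counts in asymptomatic livers 13 lay in asymptomatic liver 2. The pooled Ccnb1 ratio to control was 6.61, with a 95% counting interval of 1.99 to 34.5. DESeq2 and limma-voom called 114 and 1299 genes in this comparison and 0 members, with 3 and 5 members at an unadjusted p under 0.05. In simulated counts of this comparison, 83 of 95 genes changed 4-fold and 29 of 95 changed 2-fold were called. These genes were drawn at random from all tested genes, so the rates do not carry over to members with few counts. For such members larger changes could also be missed, and Ccnb1 at 2.52 was not called.

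AIH livers differed among themselves, and in which members led. AIH 2 was the highest AIH liver for 29 members and its summed level was 418 CPM, against 332 in AIH 1, 281 in AIH 4, 273 in AIH 5 and 271 in AIH 3. AIH 5 was the lowest for 20 members and AIH 4 for 14. AIH 4 was nonetheless the highest for Plk1, Cenpe, Kif2c and Top2a. Relative to the mean of the other 4, AIH 2 was more than 2-fold higher for 8 members: Birc5 (3.66-fold), Ube2c (3.04), Cdk1 (2.32), Ttk (2.20), Aurka (2.20), Cdca8 (2.09), Ccnb2 (2.06) and Ccna2 (2.02). For 6 members it lay below that mean, and the median ratio was 1.42. Among controls, control 3 was the highest for 30 members, and among asymptomatic livers number 2 for 24.

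Other genes of division and of the cycle were called in part, and their counts stand beside 15.6% of all tested genes called higher against control and 19.1% higher and 10.7% lower against asymptomatic livers. Of 37 further kinetochore and centromere genes tested, 21 rose against control and 22 against asymptomatic livers, with medians of 1.35 and 1.52. The inner centromere protein Incenp rose by 2.55 ± 0.23 and 2.09 ± 0.21, and shugoshin Sgo2a by 3.00 ± 0.42 and 3.5 ± 0.41. Mis12 and Zw10 fell against asymptomatic livers, by 0.76 ± 0.22 and 0.58 ± 0.21 on the log2 scale (edgeR adjusted p = 0.0196 and 0.0472), and neither passed against control or, with library totals alone as the scaling, against asymptomatic livers. Of 31 other spindle, condensin and cytokinesis genes, 25 and 26 rose, with medians of 2.39 and 2.28. Among them the condensin subunit Ncapd2 rose by 2.07 ± 0.20 and 2.0 ± 0.19.

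Regulators of entry and exit were split, with 6 of 14 called higher against control and 7 against asymptomatic livers. The phosphatase Cdc25b, which activates Cdk1, rose by 3.26 ± 0.45 and 3.02 ± 0.40, and separase (Espl1), which cuts cohesin, by 4.05 ± 0.52 and 3.29 ± 0.45. Of the 14 core subunits of the anaphase-promoting complex, whose partners Cdc20 and Ube2c are members, 0 passed edgeR's test in either contrast, with medians of 0.12 and -0.02. At an unadjusted p under 0.05 there were 2 against control and 3 against asymptomatic livers. DESeq2 called 0 in each, limma-voom 0 and 1, and edgeR with library totals alone 1 and 3, all higher. The smallest p among them belonged to Anapc11 (0.47 ± 0.19 and 0.42 ± 0.18) and, against asymptomatic livers, Anapc4 (0.31 ± 0.13).

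Genes of earlier phases of the cycle were called in part, with lower medians than the members. Of 26 replication licensing and DNA synthesis genes, 18 rose in each contrast, with medians of 1.16 and 1.07. The helicase subunit Mcm3 rose by 2.08 ± 0.21 and 2.07 ± 0.20 and the ribonucleotide reductase subunit Rrm1 by 1.25 ± 0.14 and 1.38 ± 0.13. Mcm10 went the other way and fell against asymptomatic livers by 2.24 ± 0.53 on the log2 scale (edgeR adjusted p = 0.00594), with 54.4 ± 40.1 CPM (SD, n = 4) in controls, 148 ± 61.5 in asymptomatic livers (n = 5) and 31.3 ± 20.2 in AIH livers (n = 5). Of 8 G1 cyclins and kinases, edgeR called 1 in each contrast, the D cyclin Ccnd2, at 1.87 ± 0.32 and 1.73 ± 0.29. Against control DESeq2 called 3 of the 8, limma-voom 4 and edgeR with library totals alone 3, and against asymptomatic livers they called 1, 1 and 2. Next by p in edgeR were Ccne1 against control (1.59 ± 0.56) and Ccnd3 against asymptomatic livers (0.52 ± 0.20).

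Inhibitors of cyclin-dependent kinases were called in part, with 2 of 6 tested higher against control (15.6% of all tested genes) and 3 against asymptomatic livers (19.1% of all), or 5 there with library totals alone. Cdkn2d (p19) rose by 1.79 ± 0.34 and 1.90 ± 0.32, and Cdkn2a, which encodes p16 and Arf, by 3.32 ± 0.77 and 5.04 ± 0.85 with 2.3 ± 2.2 CPM in AIH livers (SD, n = 5). Of 19 E2F, pocket and MuvB genes, the regulators above the late wave, 4 rose against control, and against asymptomatic livers 5 rose and 2 fell, shares near the 15.6%, 19.1% and 10.7% of all tested genes. The pocket protein gene Rbl1 rose by 1.61 ± 0.23 and 1.74 ± 0.22 and E2f2 by 3.89 ± 0.54 and 2.65 ± 0.46. E2f6 and Rbbp4 fell against asymptomatic livers by 0.65 ± 0.22 and 0.56 ± 0.20 on the log2 scale (edgeR adjusted p = 0.0383 and 0.0497). With library totals alone as the scaling, neither E2f6 nor Rbbp4 passed. In asymptomatic livers against control, 0 genes of all these division and cycle lists passed edgeR's test and 17 of 155 tested (10.97%) had an unadjusted p under 0.05, near the 10.5% of all genes, where DESeq2 called 1 and limma-voom 12.

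Markers of blood and immune cells were also higher in AIH livers. Their counts stand beside 15.6% of all tested genes called higher against control and 19.1% against asymptomatic livers. T cell markers rose in 8 of 8 genes in both contrasts, and their summed level was 3.21 to 6.65 CPM in controls, 3.49 to 6.09 in asymptomatic livers and 12.6 to 88.8 in AIH livers. B and plasma cell markers rose in 7 of 8, with sums of 6.95 to 16.5, 5.82 to 54.7 and 32.1 to 689 CPM. Monocyte and macrophage markers rose in 6 of 6, with sums of 181 to 389, 213 to 274 and 800 to 1639 CPM, and Kupffer cell markers in 5 of 5, with sums of 297 to 630, 376 to 507 and 686 to 3274 CPM. Granulocyte precursor markers rose in 5 of 5 tested, from sums of 0.327 to 0.935 and 0.294 to 2.59 CPM to 2.52 to 261 CPM, with Ctsg and Ms4a3 at 0 in every control and asymptomatic liver. Mature neutrophil markers rose in 5 of 5 tested, with sums of 1.93 to 4.47, 1.71 to 8.92 and 15.2 to 987 CPM. Erythroid precursor markers rose in 5 of 7 against control and 6 of 7 against asymptomatic livers, although their sums overlapped, with 20.4 to 151, 105 to 240 and 37.6 to 334 CPM.

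Resident cells of the liver other than Kupffer cells moved less uniformly. Hepatocyte markers were called lower in 1 of 8 against control (Cyp2e1) and in 3 of 8 against asymptomatic livers (Ttr, Hnf4a and Cyp2e1). Of all tested genes, 6.08% and 10.7% were called lower in these contrasts. Ttr did not pass with library totals alone (edgeR adjusted p = 0.17). Stellate cell and fibroblast markers rose in 4 and 5 of 6, beside 15.6% and 19.1% of all tested genes. Of 5 cholangiocyte markers edgeR called 1 higher in each contrast, Spp1 against control and Krt7 against asymptomatic livers, near the background of 15.6% and 19.1%; DESeq2 called 0 in both, and limma-voom 0 and 1 lower. Sinusoidal endothelial markers were called in 0 of 5 by edgeR, with 2 at an unadjusted p under 0.05 in each contrast. DESeq2 called 1 in each, limma-voom 1 in each, lower against control and higher against asymptomatic livers, and edgeR with library totals alone 0 and 2. Within the AIH group the summed level of the 43 members varied less than the sums of the blood and immune lists. Its highest and lowest library differed 1.54-fold, against 2.05-fold for monocytes and macrophages, 4.77-fold for Kupffer cells and 7.06-fold for T cells. The range was 8.89-fold for erythroid precursors, 21.5-fold for B and plasma cells, 65.1-fold for mature neutrophils and 104-fold for granulocyte precursors. These lists hold 5 to 8 genes against 43, so the sums do not compare gene for gene. Single members ranged from 1.28-fold (Foxm1) to 4.51-fold (Birc5). Sums of the further kinetochore and centromere genes ranged 1.46-fold, of the replication genes 1.58-fold and of the kinase inhibitors 6.47-fold. AIH 4 had the lowest granulocyte precursor sum of the group (2.52 CPM, beside 2.59 CPM in asymptomatic liver 5) and a member sum of 281 CPM. AIH 5 had the lowest T cell and B cell sums, 12.6 and 32.1 CPM, and a member sum of 273 CPM. The part that each cell type takes in the members' levels was not tested.

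**Figure D5:**
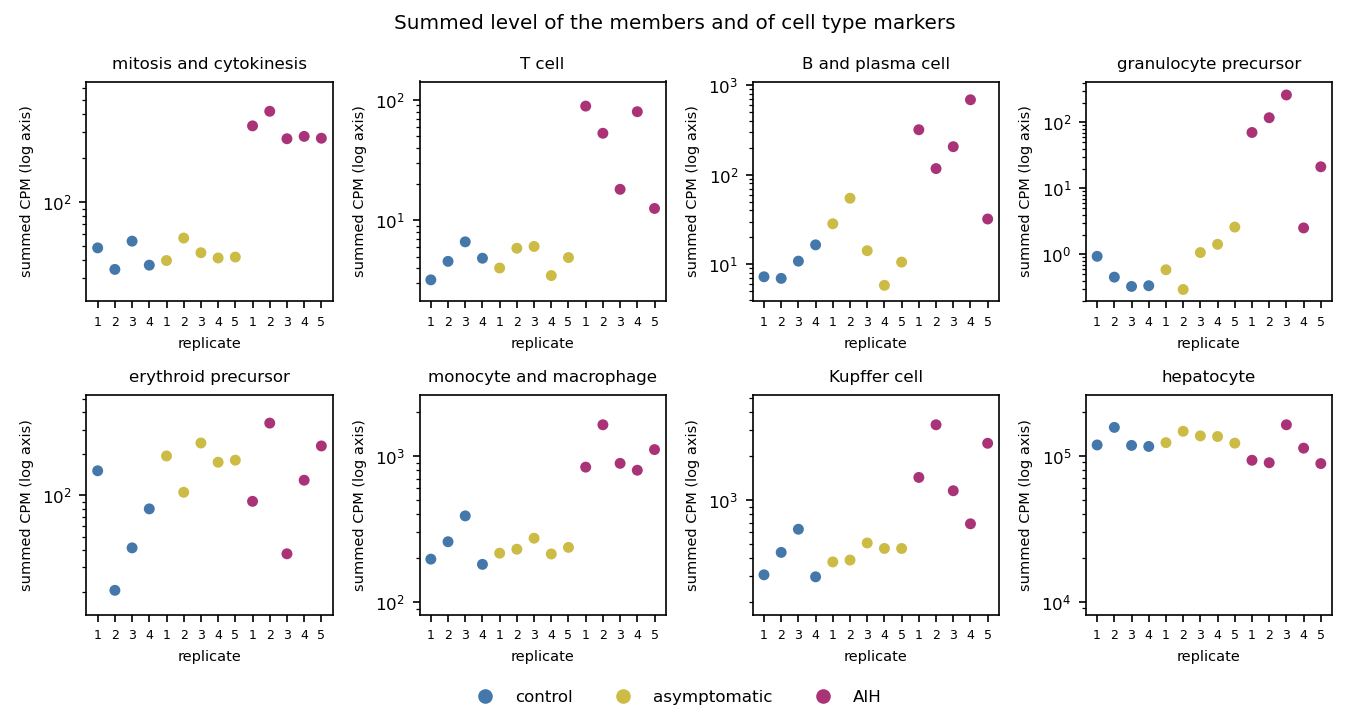
Summed level in CPM (log axes) of the 43 members and of 7 cell type marker lists in each library, by replicate and group. The AIH points of the members lie close together between 271 and 418 CPM, those of T cells, B cells and granulocyte precursors spread 7.06-fold, 21.5-fold and 104-fold, and erythroid sums overlap between groups.

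Sex and the share of unaligned reads moved with the groups, and the members were therefore also fitted with each. Against control, 42 members passed with either as a term. In each of these fits the calls over all genes stayed within 1.5 times the 3174 of the main fit. Within females (AIH 1, 2, 3 and 5 against controls 2 and 3) 40 of 43 passed, with a median of 3.42. Aurka and Ttk joined Ect2 below the threshold. Over all genes 839 were called within females, beside 3174 in the main fit. Within males AIH 4 stood alone against 2 controls, so its spread was not measured, and the fit lends it the spread of the remaining livers. All 43 values were positive there, with a median of 3.55 and a lowest value of 0.32, and no count of calls is given. Against asymptomatic livers, 40 members passed with sex as a term (median 3.02), without Cenpa, Dlgap5 and Ect2. Over all genes 1372 were called in that fit, beside 4355 in the main fit. With the unaligned share as a term 31 members passed, with a median of 2.81, where 562 were called over all genes. The 12 members lost were Ccnb1, Aurka, Ttk, Ube2c, Cenpa, Ndc80, Birc5, Dlgap5, Kif20a, Kif20b, Ect2 and Anln. Within males, AIH 4 alone against 5 asymptomatic livers, the median was 3.06. In each of these fits all 43 values stayed positive.

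The difference between the sexes in AIH against control was tested as an interaction. None of the 43 members and 0 of 14638 genes passed (edgeR), where 1 member and 404 genes had an unadjusted p under 0.05. That member was Kif18b (edgeR adjusted p = 0.9999). The test rests on AIH 4 as the sole male of its group. Scaling by library totals alone moved the median of all genes to 0.14 against control and 0.17 against asymptomatic livers and the share of calls that were higher from 72.0% to 89.8% and from 64.2% to 88.9%. The members' calls stayed at 42 and 43 under that scaling.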

How the data were processed

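The deposited files hold raw counts per mouse Ensembl gene, not normalized, 1 file per liver, with 51912 gene rows and 5 summary rows that name no gene and were left out of totals and tests. Per the submitters' processing notes, the authors' tools include HTSeq 0.9.0, HISAT2 2.1.0, cutadapt 1.12, FastQC 0.11.5, R 4.0 and edgeR, with no roles given; a human and a mouse build (GRCm38) are named. Annotation release, strand setting and layout are not given in the sources used here. Of all reads, 28.8% to 37.0% did not align uniquely and 1.38% to 3.05% were ambiguous. GENCODE (GRCm38) paired 51633 IDs with symbols.

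Counts were filtered with filterByExpr, scaled by TMM and tested with edgeR 4.0.16 (quasi-likelihood F-test, two-sided, R 4.3.3) in 1 fit of all 14 libraries, with Benjamini-Hochberg adjustment over 14638 genes and a threshold of 0.05. The standard error of a log2 fold change is its size over the root of F. Intervals and floors cover counting error only, and the floor is 3 counts over a group (0.0422 CPM in controls). P-values measure the spread between the sampled livers. Replicate numbers follow accession order and only name libraries. Members with a value for every library are those with the smallest p of each role against asymptomatic livers and, in roles of 4 or more, the largest. From other lists come the 2 smallest p and up to 3 genes that go against the rest. A result of this rule is not reported here. Members, roles and lists were chosen with earlier results of these data known. Sex and unaligned share were used only as terms or to compare within a sex; the within-sex fits, the sex interaction and the unaligned share were added after the data were seen. On simulated AIH against control counts (13861 genes tested), 82 of 98 genes changed 4-fold, 31 of 95 changed 2-fold and 4 of 13668 unchanged genes were called; for AIH against asymptomatic livers (13871 tested) the calls were 84 of 97, 37 of 99 and 3 of 13675. Every simulated group was drawn from the control means, with as many genes raised as lowered and no difference in sex or alignment. The real AIH contrasts call far more genes, most of them higher, so these rates are not their error rates. DESeq2 1.42.0, limma 3.58.1 (voom), other scalings, filters and left-out libraries were run as alternatives.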

Additional observations from a re-analysis of the deposited data

Results flagged for a closer look

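Within each group of 4 or 5 livers, the highest and lowest library of every member was checked for a gap to the rest that exceeds Dixon's 95% critical value. Of 129 groups checked 10 stood out, where chance alone gives about 1 in 20, or 6.45.

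Asymptomatic liver 2 was set apart upward for 4 members. Ccnb1 stood at 0.765 CPM there against 0.125 to 0.194 in the rest of its group, on 13 counts. Mybl2 stood at 0.294 CPM against at most 0.129, on 5 counts, and Cenpe at 0.941 CPM against at most 0.399, on 16 counts. Smc4, the best counted of these, stood at 15.4 CPM against 11.2 to 11.7, on 261 counts. In this library 4.93% of reads were not aligned, against 7.80% to 9.27% in the rest of its group, and the part of that difference in these levels was not tested.

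AIH 2 was set apart upward for 3 members. Ccnb2 stood at 10.3 CPM against 4.44 to 5.95 in the other AIH livers, Ube2c at 14.3 CPM against 3.36 to 6.39, and Birc5 at 18.9 CPM against 4.20 to 7.15. AIH 2 also held the highest sums of neutrophil, monocyte and macrophage, Kupffer cell and erythroid markers of the AIH group, at 987, 1639, 3274 and 334 CPM, and their part in these levels was not tested.

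Among controls, Foxm1 was low in control 4 at 0.223 CPM against 0.565 to 0.599, on 4 counts. Melk was high in control 1 at 0.468 CPM against at most 0.163, on 8 counts. Prc1 was high in control 3 at 0.817 CPM against at most 0.409, on 15 counts.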

How the results depend on the processing

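The members' counts kept to within 1.5 times under other scalings, count filters, tests and each left-out library: 42 to 42 against control and 43 to 43 against asymptomatic livers when libraries were left out, and 0 in asymptomatic livers against control. Within males, where AIH 4 is the only AIH liver and is assumed to vary like the other groups, 19 members passed against control. The mean of at least 1 CPM filter left 39 members. Among single member values, 3 lost the threshold against asymptomatic livers with sex as a term and 12 with the unaligned share. Against control Aurka and Ttk lost it within females, and Ect2 passed anew (limma-voom). The fits within males rest on 1 AIH liver and are left out of these counts. No member value of the AIH comparisons changed sign. In asymptomatic livers against control only Ccnb1, Kif23 and Birc5 were followed, and these kept their sign. Positive values there numbered 28 in the main fit, 30 with sex as a term and 37 with the unaligned share. Some members therefore changed sign.

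Counts over all genes moved more. Against control 3174 genes were called, 839 within females and 555 within males, and 2350 to 3425 with a library left out. Against asymptomatic livers 4355 were called, 1372 with sex as a term, 562 with the unaligned share as a term, 980 within males, and 3317 to 4649 with a library left out. In asymptomatic livers against control 0 were called by edgeR, 114 by DESeq2, 1299 by limma-voom and 0 to 13 with a library left out, the 13 without asymptomatic liver 2. The members' median in that comparison was 0.48 with the unaligned share as a term, and against asymptomatic livers the median was 3.02 with sex as a term, 2.81 with the unaligned share and 3.06 within males. The causes were not tested. Members with few counts, such as Ccnb1 with 3 over the controls, have wide limits at this depth. No paired analysis was possible because the labels give no replicate numbers shared between groups.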
